A study of Mus musculus with 8 samples.

Results

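The 10 genes described here are components of the Notch pathway that were listed by name, namely the receptors Notch1, Notch2 and Notch3, the ligands Dll1, Jag1 and Jag2, the transcriptional targets Hes1, Hey1 and Heyl, and the inhibitor Numb. All 10 had a row among the 27179 genes of the deposited expression table, found by Entrez identifier, and all 10 passed the filter on low values with 11406 genes in all. Each of the 10 also had at least 1 peak in at least 1 of the 4 lists of N6-methyladenosine (m6A) peaks, in 24 of the 19683 regions left after overlapping peaks were merged.

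In the Notch pathway a ligand on one cell binds a receptor on its neighbour, the receptor is cut, and its intracellular part enters the nucleus, joins the DNA-binding protein Rbpj and turns on genes of the Hes and Hey families. In muscle the pathway is known for keeping satellite cells and myoblasts undifferentiated, and Numb is known as an antagonist that promotes removal of the receptor. m6A is a methyl mark on adenosines of mRNA, written mainly in short sequences with a GGAC core and most often found near stop codons and in 3′ UTRs.

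The cells were C2C12, an immortalized mouse myoblast line that divides in growth medium and fuses into myotubes when serum is lowered. GM samples were dividing cells at about 50% confluence in medium holding 10% fetal bovine serum, and 3d DM samples were cells kept for 3 days with 2% horse serum after reaching more than 90% confluence. No cell was genetically altered or given a drug, so the states differ in serum, density and time together, and these cannot be told apart. In each state 2 input libraries (RNA-seq) and 2 m6A-immunoprecipitated libraries (MeRIP-seq) were made. Nothing in the labels says that replicates came from separate cultures, so p-values rest only on spread between these samples. For expression that spread was pooled over genes of similar abundance and was not each gene's own.

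The proliferation and myotube markers went with the labelled states. The proliferation gene Mki67 had TMM-normalised values of 3586 and 3659 in GM against 446 and 760 in 3d DM, and the 5 proliferation markers were all higher in GM. Myog, a factor of early differentiation, had values of 1008 and 221 in GM against 5392 and 11502 in 3d DM, and Myh3, an embryonic myosin, had 1068 and 273 in GM against 33485 and 51674 in 3d DM. The 5 myotube markers summed to 4517 in GM replicate 1 and 1052 in GM replicate 2, so the GM libraries were not alike in this respect. The undifferentiated-cell gene Pax7 was low in every library (50.2 to 77.8) and Myod1 overlapped between states (1713 and 1129 against 1016 and 1645). The other 3 genes of the undifferentiated list were called in both directions, with Myf5 (397 and 355 against 58.5 and 121) and Id1 (292 and 641 against 99.5 and 205) higher in GM, and Spry1 (57.0 and 23.1 against 201 and 391) higher in 3d DM. Endothelial, macrophage and adipocyte markers were at or near 0, with summed values of at most 11.2, 26.4 and 0.75 in any library, and Kdr, Adgre1 and Adipoq were listed at 0 throughout.

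The replicate numbers of the GM inputs did not go together with those of the GM peak lists. Of 190 tested genes whose value was higher by at least 2 on the log2 scale in the input of GM replicate 1, 4 had a peak in GM list 1 alone and 24 in GM list 2 alone. Of the 22 genes that were higher by as much in the input of replicate 2, 7 had a peak in list 1 alone and 0 in list 2 alone. Among 9894 genes with GM inputs within 1 (log2), 928 had a peak in list 1 alone and 509 in list 2 alone. Between the 3d DM inputs only 3 and 20 genes differed by at least 2. In the input of 3d DM replicate 2, 676 genes were higher by 1 to 2. Of these, 123 had a peak in 3d DM list 1 alone and 30 in list 2 alone. For the 22 genes higher by 1 to 2 in replicate 1 the counts were 1 and 0. For 10532 genes with 3d DM inputs within 1 they were 1520 and 572. The cause was not tested. An input value is therefore not set beside the peak list of the same number below, except to describe the numbering for single genes. The comparison of expression between GM and 3d DM does not use the pairing. Fold enrichment was computed by the authors from an immunoprecipitated library and its input. The folds below, in both states, thus rest on a pairing that could not be checked further.

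The first comparison asked whether expression of the pathway genes differed between proliferating and differentiating myoblasts. Of the 10 genes, Dll1 and Heyl were called with more RNA in 3d DM, and Hey1 with more in GM, at an adjusted p under 0.05 (limma on log2(value + 1), Benjamini-Hochberg over all tested genes), and 7 were not called. Over all 11406 tested genes, 7.01% were called higher in 3d DM and 9.96% higher in GM. Without 3d DM replicate 1, and likewise without 3d DM replicate 2, 0 of the 10 genes were called, although those fits had a lone 3d DM library that was assumed to vary like the GM libraries. The median of the 10 differences (GM minus 3d DM, log2) was 0.26, against 0.22 over all tested genes. A difference is in log2 units throughout, is negative where 3d DM was higher, and is smaller than the true change for low genes because of the added 1. In bulk RNA, fewer cells of a kind and less RNA per cell cannot be told apart.

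None of the 3 receptors was called different between the states. Notch2 was the highest of them, also per length, with TMM-normalised values of 2006 and 1347 in GM against 988 and 1306 in 3d DM. Both GM libraries lay above both 3d DM libraries, but GM replicate 2 and 3d DM replicate 2 were close, and the difference of 0.53 ± 0.42 (SE, n = 2 in each state) had an adjusted p of 0.47 (limma). Such a separation with GM on top was seen in 37.0% of all tested genes, and in 16.8% with 3d DM on top.

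Notch1 had values of 579 and 572 in GM against 381 and 572 in 3d DM. On the deposited scale 3 of the 4 libraries were thus nearly equal and only 3d DM replicate 1 was lower. That library was also low in general, with a log2 median-of-ratios factor of -0.36 against 0.14 for 3d DM replicate 2. With rescaling by these factors the Notch1 difference was 0.07. Notch3 had 1051 and 426 in GM against 428 and 772 in 3d DM. Here 1 library of each state was at the level of about 426 and the other was well above it, and the spread within a state was larger than the difference between the state means of 738 ± 442 and 600 ± 243 (SD, n = 2). The differences were 0.30 ± 0.44 for Notch1 and 0.22 ± 0.44 for Notch3 (SE).

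**Figure D1:**
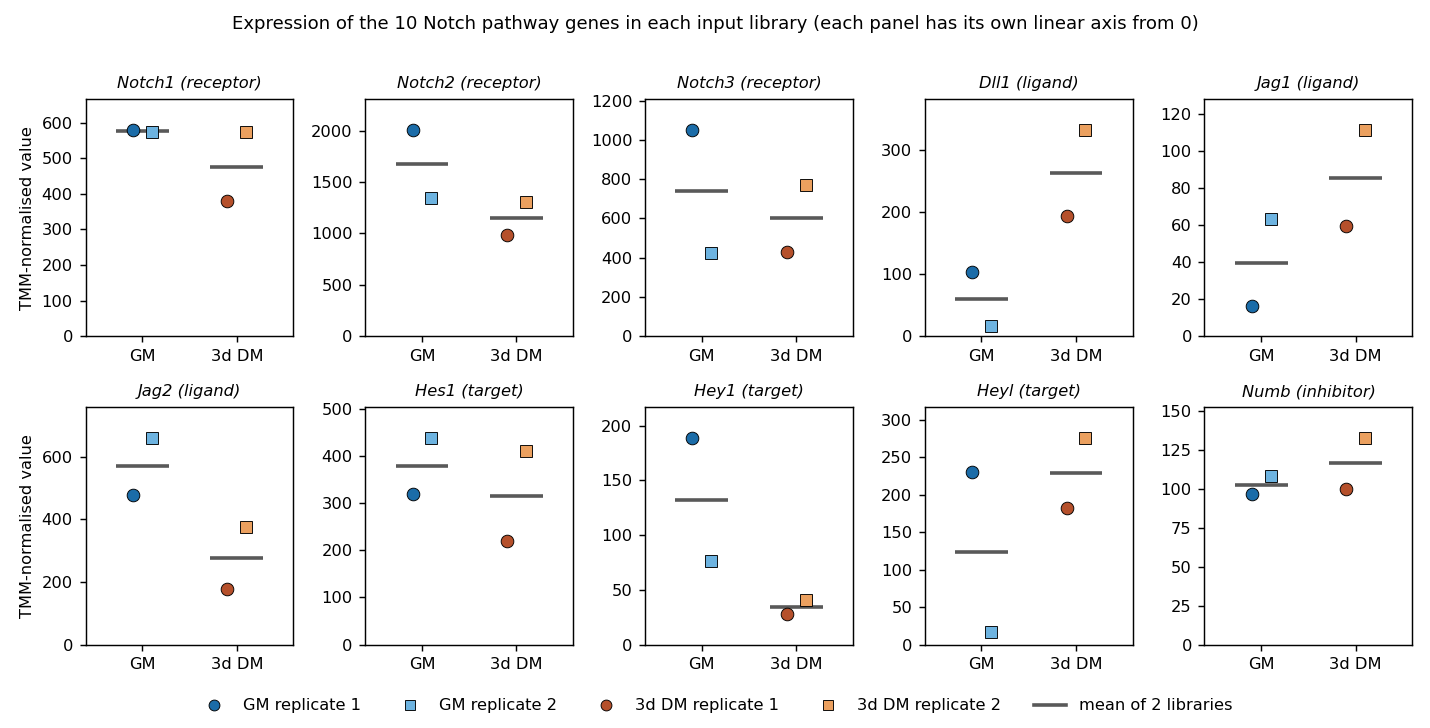
TMM-normalised value (vertical axis, linear from 0, a separate scale in each panel) of each of the 10 genes in the 4 input libraries, GM in blue and 3d DM in orange, with a horizontal line at the mean of 2 libraries. The groups do not overlap for Notch2, Dll1, Jag2 and Hey1, and GM replicates 1 and 2 lie far apart for Dll1, Heyl, Notch3 and Hey1.

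The ligands differed among themselves. Dll1, a Delta-family ligand (RefSeq gene at chr17:15367354-15376932, GRCm38), had values of 104 and 16.1 in GM against 194 and 332 in 3d DM. Both 3d DM libraries were above both GM libraries, and the mean rose from 59.8 ± 61.9 to 263 ± 97.5 (SD, n = 2), a ratio of 4.39. The difference of -2.59 ± 0.51 (SE) had an adjusted p of 7.85e-06 (limma).

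The call for Dll1 depended on single libraries. GM replicate 1 was 6.44 times as high as GM replicate 2, and without GM replicate 2 the difference was -1.28 with an adjusted p of 0.43. Without 3d DM replicate 1 or 2 the adjusted p was 0.25 in both fits, while rescaling by median-of-ratios factors gave 0.044. Over the 12 alternatives that could be fitted, the adjusted p ran from 6.36e-07 to 0.43, and 9 kept the call.

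Jag1, a Serrate-family ligand, had the lowest mean of the 10 genes in GM, also per length, though Dll1 and Heyl were lower in GM replicate 2, with 16.5 and 63.2 in GM against 59.6 and 111 in 3d DM. GM replicate 2 reached the level of 3d DM replicate 1, so the states overlapped, and the difference of -1.30 ± 0.57 had an adjusted p of 0.10. It was called in 2 of 12 alternatives, namely without the trend (adjusted p 0.034) and without GM replicate 2 (0.027), and its adjusted p ran up to 0.91.

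Jag2, the other ligand of that family, had 479 and 659 in GM against 178 and 374 in 3d DM. Both GM libraries were above both 3d DM libraries and the mean in GM was 2.06 times that in 3d DM. The difference of 1.12 ± 0.45 did not pass (adjusted p 0.070, limma), and it was not called in any of 13 alternatives (0.069 to 0.73).

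The targets also differed among themselves. Hes1, the best known target, had 318 and 438 in GM against 220 and 410 in 3d DM, with overlapping states and a difference of 0.31 ± 0.46. Hey1 (chr3:8663359-8667038) had 189 and 76.3 in GM against 28.3 and 40.7 in 3d DM. Every GM library was above every 3d DM library and the mean fell from 132 ± 79.3 to 34.5 ± 8.78 (SD, n = 2), so GM was 3.83 times as high.

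For Hey1 the difference of 1.79 ± 0.55 (SE) had an adjusted p of 0.0090 (limma), and 10 of 13 alternatives kept the call, with adjusted p from 0.0014 to 0.42. The call was lost without GM replicate 1 (difference 1.14, adjusted p 0.42), without 3d DM replicate 1 (0.33) and without 3d DM replicate 2 (0.14).

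Heyl (chr4:123233556-123249870) had 230 and 16.1 in GM against 182 and 275 in 3d DM. The call rested on GM replicate 2 alone, since GM replicate 1 lay between the 3d DM libraries. The difference of -1.84 ± 0.50 had an adjusted p of 0.0026 (limma) in spite of the overlap, because the standard error followed the trend over all genes of that abundance and not the spread of this gene, which was 123 ± 151 (SD, n = 2) in GM. Without GM replicate 2 the difference was 0.04 with an adjusted p of 0.99, and with either rescaling the adjusted p was 0.21. Without 3d DM replicate 1 or 2 it was 0.54. Over 12 alternatives it ran from 4.29e-06 to 0.99.

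On the deposited scale Numb differed least between the states among the 10 genes. It had 96.6 and 108 in GM against 99.9 and 132 in 3d DM, and the difference of -0.17 ± 0.51 had an adjusted p of 0.90 (limma).

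GM replicate 1 stood apart from GM replicate 2 for several of these genes in the same direction as for the myotube markers. Its value was 14.3 times that of replicate 2 for Heyl, 6.44 times for Dll1, 2.47 times for Hey1 and for Notch3, and the corresponding ratio for Myog was 4.56. For Jag1 the ratio was 0.26. The part of the myotube marker level in these differences was not tested.

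When values were divided by the exon length of each gene, levels could be ordered within a state. In GM the order by mean value per kb was Hes1 (186), Notch2 (155), Notch3 (91.2), Jag2 (81.7), Hey1 (40.6), Notch1 (40.4), Numb (26.2), Heyl (24.1), Dll1 (14.2) and Jag1 (6.83). In 3d DM it was Hes1 (155), Notch2 (106), Notch3 (74.2), Dll1 (62.3), Heyl (44.8), Jag2 (39.6), Notch1 (33.5), Numb (29.7), Jag1 (14.7) and Hey1 (10.6). Hes1, Notch2 and Notch3 thus led in both states, although each overlapped with the next. Of the 9 neighbouring pairs in each order, the libraries overlapped in 7 in GM and in 8 in 3d DM, and the breaks were between Jag2 and Hey1 and between Notch1 and Numb in GM, and between Numb and Jag1 in 3d DM. Dll1 moved from place 9 to place 4 and Hey1 from place 5 to place 10. In 3d DM, both libraries of Hey1 (8.68 and 12.5) were below both libraries of Numb (25.5 and 33.8), whereas in GM the libraries of these genes overlapped.

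Among the other pathway genes, 43 of 56 passed the filter and 5 were called. This list comprised the remaining receptor, ligands and targets, and the genes of glycosylation, cleavage, ligand endocytosis, the nuclear complex, corepression and receptor turnover. Their median difference was 0.08, below the 0.22 of all tested genes, with 3 called higher in 3d DM and 2 in GM. Over all 11406 tested genes 7.01% were called higher in 3d DM and 9.96% in GM, so calls were not more frequent in this list. Without GM replicate 2 only Neurl1b was called, and without either 3d DM library 0 of the 5 were.

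Of the other genes listed as targets, only Hes6 passed the filter, a family member known to be made in differentiating myoblasts. Whether Hes6 responds to Notch in these cells was not tested. It had 722 and 402 in GM against 1398 and 2473 in 3d DM, with no overlap and a difference of -1.78 ± 0.43 (adjusted p 0.00040, limma). Hes6 thus rose in 3d DM while Hey1 fell and Hes1 was not called.

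Of the 4 genes of ligand endocytosis, which is needed for a ligand to signal, 1 rose and 1 fell. Neurl1a, a Neuralized-type ubiquitin ligase, had 566 and 222 in GM against 1321 and 1941 in 3d DM (difference -2.17 ± 0.43, adjusted p 1.03e-05). Its relative Neurl1b had 142 and 52.2 in GM against 30.2 and 27.0 in 3d DM (1.56 ± 0.57, adjusted p 0.039). The call for Neurl1b was kept in 6 of 13 alternatives (adjusted p 0.0069 to 0.65), and without GM replicate 1 the difference was 0.85. Mib1, the ligase required for most Notch ligands, had 326 and 442 in GM against 395 and 709 in 3d DM and was not called (adjusted p 0.57).

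Of the 6 tested genes of receptor glycosylation and the convertase furin, only Lfng was called. Lfng, a Fringe glycosyltransferase that alters which ligands a receptor responds to, had 141 and 264 in GM against 43.1 and 90.1 in 3d DM (1.61 ± 0.51, adjusted p 0.012), and 7 of 13 alternatives kept the call (0.0050 to 0.53). Of the 10 tested genes of receptor turnover, only Fbxw7 was called, the ubiquitin ligase subunit that marks the intracellular part of the receptor for degradation. It had 218 and 164 in GM against 646 and 660 in 3d DM (-1.79 ± 0.45, adjusted p 0.00097). Numbl, the relative of Numb, had 239 and 127 in GM against 226 and 423 in 3d DM (adjusted p 0.26).

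No gene of receptor cleavage (9 tested) or of the nuclear complex (9 tested) was called. Adam10, which makes the first cut after ligand binding, had 736 and 664 in GM against 487 and 774 in 3d DM. Rbpj had 771 and 731 in GM against 394 and 490 in 3d DM, without overlap but with an adjusted p of 0.26 for a difference of 0.77 ± 0.44. The coactivator Maml1 had 339 and 458 in GM against 259 and 440 in 3d DM.

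Several family members were at or near 0. Dll3, Dll4, Dlk1 and Hes5 were listed at 0 in all 4 libraries, and Notch4, Dner, Hes7 and Hey2 did not exceed 6.41. The target and feedback inhibitor Nrarp reached 19.1, and the ligand Dlk2 had 56.1 in GM replicate 2 but no more than 15.04 elsewhere.

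**Figure D2:**
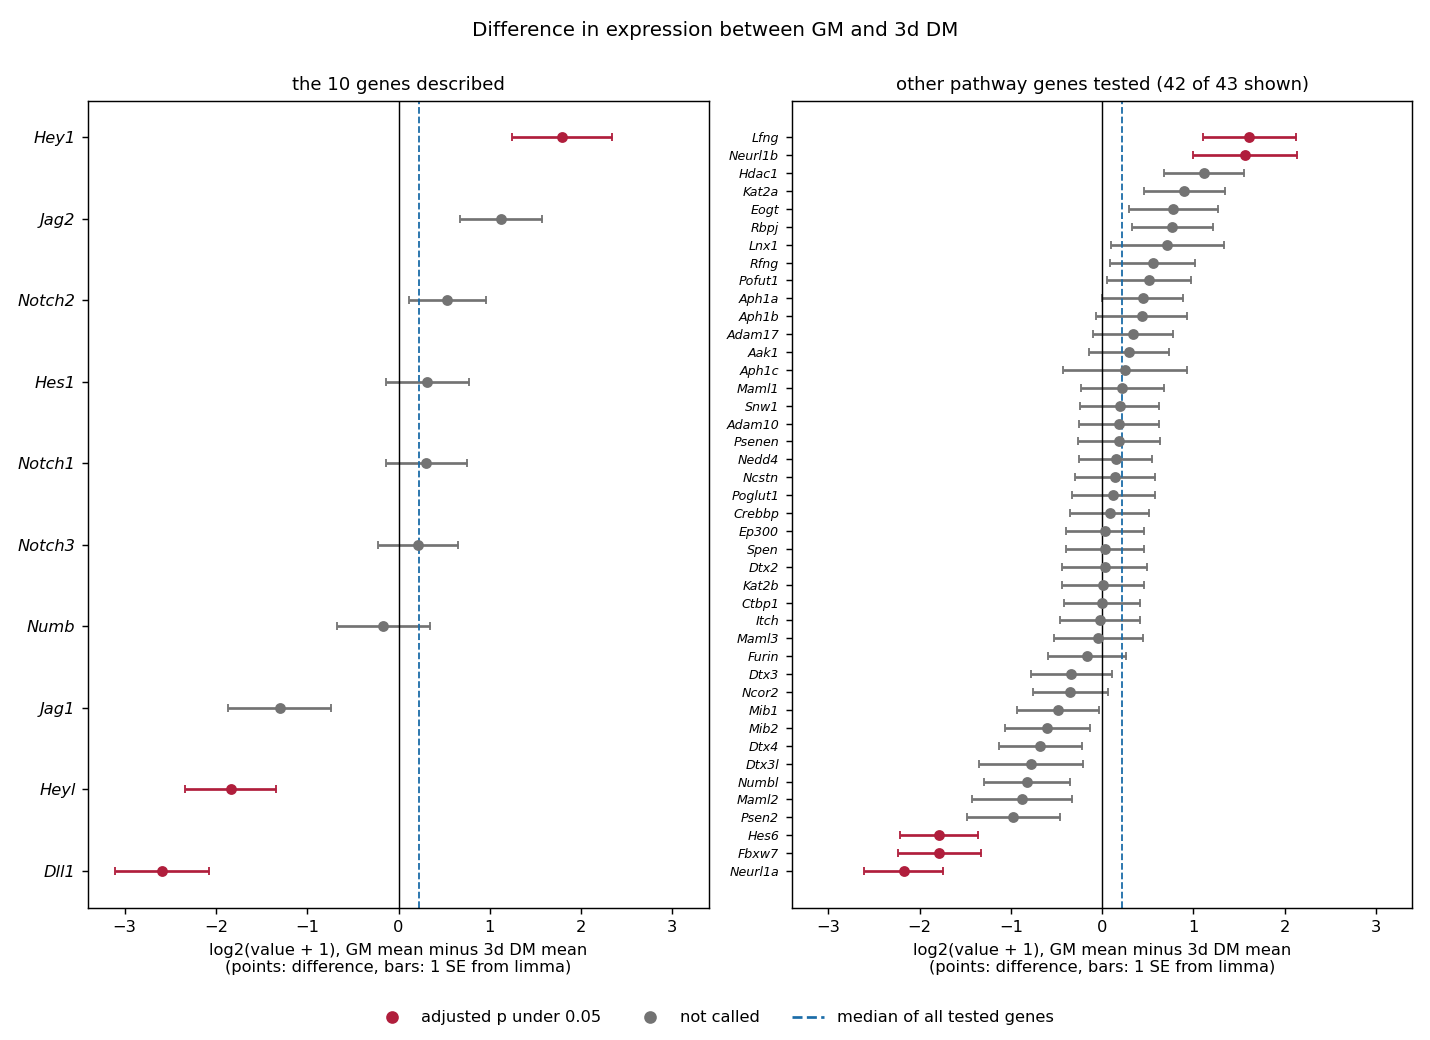
Difference in log2(value + 1) between the GM and 3d DM means (horizontal axis, positive where GM was higher) for the 10 genes (left) and the other pathway genes tested (right, all but 1 of the 43), with bars of 1 SE from limma, genes with an adjusted p under 0.05 in red, and a dashed line at the median of all tested genes, 0.22. Dll1, Heyl, Neurl1a, Fbxw7 and Hes6 lie on the 3d DM side and Hey1, Lfng and Neurl1b on the GM side.

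The median gene was higher in GM by 0.22 (log2), so differences were also read relative to it. Relative to the median, the differences were -2.81 for Dll1, -2.06 for Heyl, -1.53 for Jag1, 1.57 for Hey1, 0.90 for Jag2 and 0.31 for Notch2, and Notch3 was at -0.01. Rescaling changed the share of all calls that were higher in GM from 58.7% to 48.2% (median of ratios) or 49.2% (trimmed mean). The called genes then were Dll1 and Hey1 among the 10, with Heyl lost. Among the other pathway genes Lfng and Neurl1b were lost and Hdac1 and Maml2, a corepressor and a coactivator, were gained with both, and Psen2 with the first of them.

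The gene with the most similar profile was sought for each of the 10 among the 53 tested pathway genes, as the smallest Euclidean distance of log2 values centred on each gene over the 4 input libraries. For Dll1 it was Neurl1a (distance 1.00) and for Heyl it was Dll1 (1.11). For Hey1 it was Neurl1b (0.53) and for Jag2 the acetyltransferase gene Kat2a (0.52). The closest pairs were Notch2 with Rfng (0.13), Hes1 with Maml1 (0.13) and Notch1 with Aph1b (0.15). Numb was nearest to Ctbp1 (0.22), Notch3 to Aph1c (0.29) and Jag1 to Mib1 (1.31). Aph1b and Aph1c are near-identical copies, so how reads were divided between them is uncertain. Libraries of a state share their processing, and the distances describe 4 libraries.

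Promoters of 7 of the 10 genes were in the RefSeq promoter table (GRCm38, 250 bases before to 50 after a gene start), with 10 promoters among them. Hes1, Hey1 and Heyl, the targets, were not searched. The core recognised by Rbpj, spelled GTGGGAA, was searched on both strands. None of these 10 promoters, which belong to the receptors, ligands and Numb, held it, and the letters were rare in general, in 6.38% of 32851 promoters in all.

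The next comparison asked where the transcripts of the pathway carried m6A peaks and whether these differed between GM and 3d DM. The 10 genes had 65 peak lines in the 4 lists, of which 58.5% touched a 3′ UTR, 61.5% a coding sequence and 4.62% a 5′ UTR. Over all 112768 lines the shares were 46.4%, 74.1% and 4.91%. A region counts once for each of its lines, so lines are not independent. Notch2 alone had 2 lines in each GM list and 4 in each 3d DM list. Peaks were seen for 7 of the 10 genes in GM list 1, 8 in GM list 2, 10 in 3d DM list 1 and 8 in 3d DM list 2. Notch1, Notch2, Notch3, Jag2 and Hes1 had a peak in all 4 lists, 5 of 10, against 42.6% of 11253 tested genes with a symbol. A missing line means that no peak passed the authors' threshold, which depends on depth and expression, and does not show that m6A was absent.

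**Figure D3:**
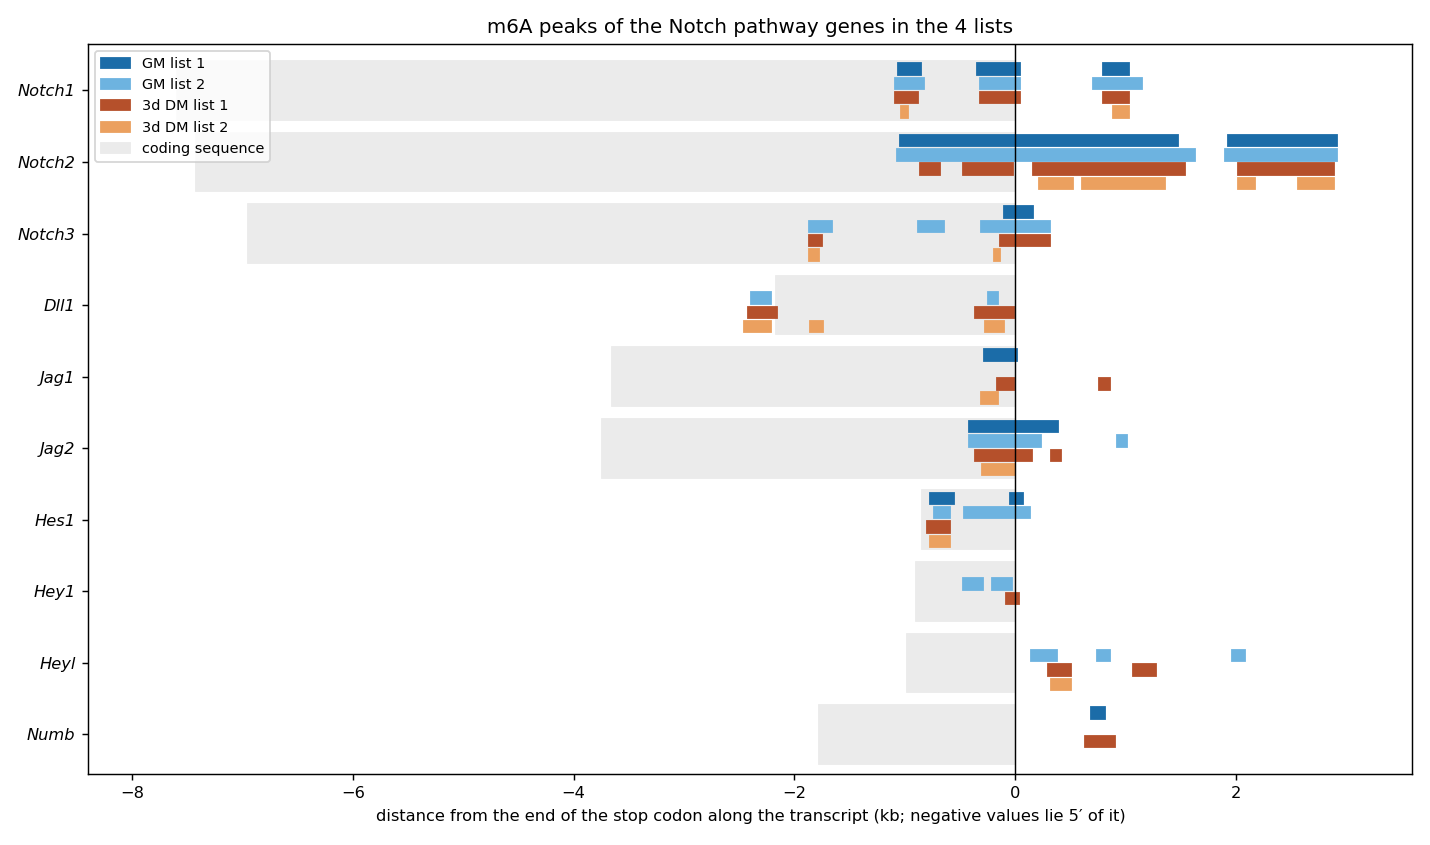
Positions of the peak lines of the 10 genes along their transcripts, in kb from the end of the stop codon (vertical line), with a row for each of the 4 lists and the coding sequence in grey. Notch2 carries the longest stretch of peaks, from the end of its coding sequence into the 3′ UTR. Heyl and Numb have peaks only in the 3′ UTR, and Dll1 has peaks in its 5′ UTR and its coding sequence.

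Among the receptors, Notch2 had peaks in a region around its stop codon (region 1, chr3:98146371-98149071, plus strand, mm10) and another farther into its 3′ UTR (region 2, chr3:98149341-98150361). Fold enrichment of immunoprecipitated over input RNA in region 1 was 7.87 and 11.6 in GM against 7.46 and 7.79 in 3d DM. The GM values belong to single peaks of 2521 and 2701 bases across the stop codon, and the 3d DM values to peaks of 1381 and 751 bases in the 3′ UTR, so they do not cover the same bases. In region 2 it was 5.0 and 5.14 in GM against 7.69 and 4.45 in 3d DM, so the states overlapped there.

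Notch1 had 2 regions in all 4 lists, in its coding sequence (region 1, chr2:26460357-26460626, minus strand) and in its 3′ UTR (region 3, chr2:26458382-26458831). Region 3 had a fold enrichment of 3.63 and 8.54 in GM against 2.45 and 2.98 in 3d DM. Both GM lists were above both 3d DM lists, with GM list 2 far above the rest. Region 1 had 4.55 and 5.63 in GM against 3.07 and 4.18 in 3d DM, again without overlap. A peak over the stop codon (region 2, chr2:26459489-26459878) was in both GM lists (3.85 and 4.14) and in 3d DM list 1 (2.91), and not in 3d DM list 2.

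Notch3 had 1 region in all 4 lists, at its stop codon (region 3, chr17:32121508-32122136, minus strand), with 4.69 and 4.14 in GM against 5.22 and 3.06 in 3d DM, which overlapped. The peak of 3d DM list 2 lay within that of GM list 2 and met only the upstream end of that of 3d DM list 1. It lay upstream of the peak of GM list 1, so that no base was shared by all 4. Its other regions were in the coding sequence, with region 1 in 3 lists and region 2 in GM list 2 alone.

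Among the ligands, Jag2 alone had a region in all 4 lists, around its stop codon (region 1, chr12:112908476-112909312, minus strand), although the peak of 3d DM list 2 lay wholly in the coding sequence. Fold enrichment was 7.53 and 8.80 in GM against 3.66 and 7.20 in 3d DM, with GM above 3d DM. Dll1 had a peak in its 5′ UTR (chr17:15375230-15375529), which reached the coding sequence in 3d DM list 1 alone, and another near the end of the coding sequence (chr17:15368138-15368611), each in GM list 2 and both 3d DM lists. Fold enrichment was 6.65 in GM and 3.64 and 4.38 in 3d DM for the former, and 3.04 in GM against 3.51 and 4.01 in 3d DM for the latter. Jag1 had a region near its stop codon (chr2:137083008-137083336) in GM list 1 (6.12) and in both 3d DM lists (4.76 and 15). The GM peak spanned the stop codon, whereas both 3d DM peaks lay in the coding sequence, and these shared 1 base with each other. Other ligand regions were each in a single list. Dll1 region 2 (coding sequence) was in 3d DM list 2 (4.59), Jag1 region 2 (3′ UTR) in 3d DM list 1 (10.6) and Jag2 region 2 (3′ UTR) in GM list 2 (2.12).

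Hes1, whose transcript is short, had a coding peak in all 4 lists (region 1, chr16:30065639-30066247, plus strand). It had the lowest mean fold enrichment of the shared regions, with 1.84 and 1.90 in GM against 2.58 and 2.46 in 3d DM, and the only one where both 3d DM lists were above both GM lists. A second Hes1 region at the stop codon (chr16:30066958-30067556) was in both GM lists (1.73 and 6.65) and in neither 3d DM list, the only such region among the 24. No region was in both 3d DM lists and in neither GM list.

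Hey1 had a peak near its stop codon in GM list 2 (4.56) and 3d DM list 1 (6.35). Another, farther upstream in its coding sequence, was in GM list 2 alone (3.58). Heyl had a peak in its 3′ UTR in GM list 2 (5.48) and both 3d DM lists (2.87 and 14.2). Farther into that 3′ UTR were peaks in GM list 2 alone (5.32 and 2.47) and in 3d DM list 1 alone (3.17). Numb had a single region, in its 3′ UTR, in GM list 1 (5.54) and 3d DM list 1 (4.41). As a description of the numbering, Dll1, Hey1 and Heyl, whose inputs were higher in GM replicate 1, had their GM peaks in list 2. Jag1, whose input favoured replicate 2, had its GM peak in list 1. Notch3, which differed as far as Hey1, had GM peaks in both lists. Numb, whose GM inputs were close (96.6 and 108), had its GM peak in list 1 alone. Why the numbers went this way was not tested.

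The sequences that the m6A peaks cover are shown for the regions found in all 4 lists, as 21 transcribed bases around the site nearest the middle of the shared part, with the 5 bases of the site in capitals and its A in the centre. The site searched was GGACT, or GGACA or GGACC where there was none, on the transcribed strand only (GENCODE M21 transcripts). All 6 windows were equal to the mm10 genome sequence at their positions.
Notch2 region 1, 3′ UTR, chr3:98148141-98148161: atatttggGGACTagaagcct
Notch2 region 2, 3′ UTR, chr3:98150048-98150068: caggacccGGACTttaaccag
Notch1 region 1, coding sequence, chr2:26460545-26460565: tcgcctgtGGACTccctcgag
Notch1 region 3, 3′ UTR, chr2:26458590-26458610: tgcattgtGGACTcgccagag
Jag2 region 1, coding sequence, chr12:112909030-112909050: ggagatggGGACTccccagag
Notch3 region 3, coding sequence, chr17:32121852-32121872: ctcagctgGGACCccaaccag

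The Notch3 window was taken from the bases of any list. In the 151 bases of Hes1 region 1 shared by the 4 lists none of these sites was present. GGACT was held by 5 of the 7 regions of these genes in all 4 lists, against 52.3% of all such regions, and by 45.8% of their 24 regions against 31.0% of all 19683. These shares were taken in the peak line with the lowest p of each region. That line was also longer for these genes, with a mean of 870 against 634 nt in all 4 lists and 419 against 332 nt over all regions. Counted per kb, the 3 kinds of site together occurred 4.93 times against 4.65 in the former and 5.87 times against 4.49 in the latter. A site in a peak is a match of letters and was not shown to be methylated.

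**Figure D4:**
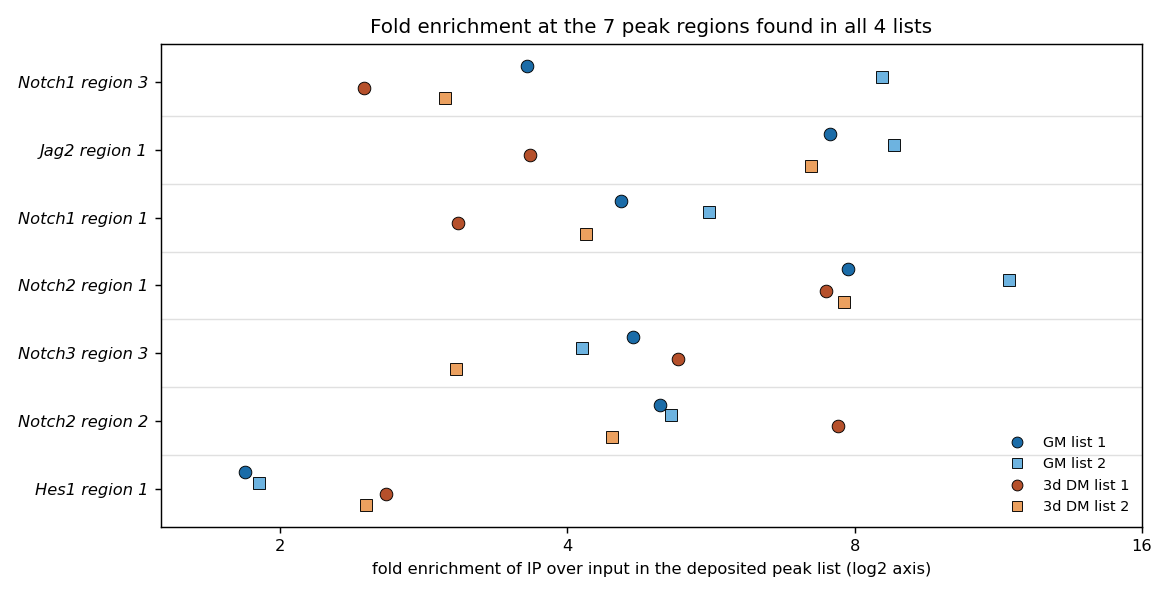
Fold enrichment of immunoprecipitated over input RNA (horizontal axis, log2 scale) at the 7 regions found in all 4 lists, with a point for each list. GM lists lie above 3d DM lists at both Notch1 regions, Jag2 region 1 and Notch2 region 1, and below them at Hes1 region 1.

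None of the 7 shared regions was called different between GM and 3d DM. Across all 6055 regions found in the 4 lists, 0.0% were called (limma on log2 fold enrichment, Benjamini-Hochberg), with 211 at an unadjusted p under 0.05, or 3.48%. Of the 7, Notch1 region 3 alone had an unadjusted p under 0.05, with a difference of 1.04 ± 0.46 (SE, n = 2 lists in each state) and an adjusted p of 1.00. Without GM list 2 that difference was 0.43, and without GM list 1 it was 1.66.

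The other differences (GM minus 3d DM, log2 fold enrichment) were 0.67 ± 0.52 for Jag2 region 1, 0.50 ± 0.42 for Notch1 region 1, 0.33 ± 0.55 for Notch2 region 1, 0.14 ± 0.43 for Notch3 region 3, -0.21 ± 0.47 for Notch2 region 2 and -0.43 ± 0.31 for Hes1 region 1. The median of all 7 shared regions, with Notch1 region 3 included, was 0.33, against 0.10 over all regions. Both GM lists were above both 3d DM lists at 4 of the 7 regions and below them at 1, where the shares over all regions were 21.4% and 9.05%.

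Setting both measurements side by side, Jag2 and Notch2 had higher values in both GM libraries in expression and in both GM lists at their region 1, without a call in either and with peaks of unequal extent. Hey1 was called lower in 3d DM and had a peak in 1 list of each state. Dll1, called higher in 3d DM, had peaks in both 3d DM lists and in 1 GM list but no region in all 4 lists. No enrichment test could thus be made for it or for Heyl and Hey1.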

How the data were processed

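MeRIP-seq and input RNA-seq files of C2C12 cells in GM and 3d DM were used as deposited, grouped by their labels. The authors aligned reads to mm10 with HISAT2 (2.1.0), called peaks with exomePeak in each sample against its input, and made the expression table with edgeR. The deposited peak lists give each peak a p-value and a ratio of its immunoprecipitated to its input RNA (fold enrichment), and the deposited expression table gives a normalised signal per gene. Its columns share nearly the same total and hold no whole reads, so depth is unknown and no counting error is given.

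Expression was tested with limma 3.58.1 (R 4.3.3) with an intensity trend on log2(value + 1), for genes reaching a value of 25.1 (2 cpm of a column's sum) in 2 or more of 4 libraries. Standard errors came from the trend rather than from the replicates of each gene. An exact permutation test of 2 libraries against 2 cannot give a p under 0.33. Peaks on the same strand sharing at least 1 bp were merged. For each list the line with the lowest p-value gave a region's fold. Symbols were matched to 98.7% of tested genes. Named were the 10 genes, pathway genes that were called, other receptors, ligands and targets, 7 genes set by name, the nearest gene in profile, and markers. Hdac1, Maml2, Psen2, Myf5, Id1, Spry1, Kdr, Adgre1 and Adipoq were named after their values were seen. A gene among those set by name is not reported here. The genes, lists and tests were chosen with earlier results of these data known. On simulated data the expression fit recovered 195 of 200 genes with a planted 4-fold change (11406 genes, 6 false calls). The enrichment fit recovered 187 of 200 regions (6055 regions, 19 false calls). In both, values were drawn independently with a spread set by the mean level alone. Genes that depart from that spread, such as Heyl, were not simulated, so these counts do not measure performance on them. Alternatives were other filters, pseudocounts of 0.1 and 4, rescaling, no trend, a replicate block, stricter peaks, other overlaps and each replicate left out. Python 3.11.15, pandas 2.3.3 and matplotlib 3.10.9 were used.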

Additional observations from a re-analysis of the deposited data

How the results depend on the processing

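Depth is unknown and each state had 2 libraries, so most calls could be lost with 1 library. Leaving out each library in turn, 0 to 2 of the 10 genes and 0 to 4 of the other pathway genes were called, with 0 in both lists without either 3d DM library. Counts without a given replicate were 5 to 7 for genes with a peak in all remaining lists, and 0 for regions called. With the filter in 4 libraries, 1 of the 10 genes was called, because Dll1, Jag1 and Heyl were no longer tested. With the replicate block, 3 of the 10 genes and 3 of the other pathway genes were called, with Lfng (adjusted p 0.058) and Neurl1b (0.12) lost, and 0 regions were called. The block changed no other call of the named genes and regions. Replicate numbers share only a number between the states, and the deviations of same-numbered GM and 3d DM libraries from their state means correlated at r = 0.29 over 11406 genes and 0.13 over 6055 regions. Genes with a peak in all 4 lists fell to 2 (Jag2 and Notch2) with peaks at p under 1e-05 and to 1 (Notch2) with a fold enrichment of at least 4. No region of the 10 genes was called under any alternative.

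Signs changed for small differences that were not called, apart from Heyl. With median-of-ratios rescaling, Notch3 was at -0.013, Adam10 at -0.044 and Maml1 at -0.0080, and with trimmed-mean rescaling Notch3 was at -0.0040 and Adam10 at -0.035. With 1 library left out, the expression difference ran from -0.43 to 0.87 for Notch3, -0.13 to 0.76 for Hes1, -3.72 (without GM replicate 1) to 0.038 (without GM replicate 2) for Heyl, -0.37 to 0.034 for Numb, -0.15 to 0.52 for Adam10 and -0.16 to 0.60 for Maml1. The enrichment difference ran from -0.60 to 0.19 for Notch2 region 2 and from -0.24 to 0.53 for Notch3 region 3. Of 336 values of 28 genes and regions under the alternatives, 288 kept direction and call, 32 lost the call, 2 gained it and 14 changed sign. The causes were not tested. Over all tested genes, 1936 were called, with 145 to 1252 when 1 library was left out, 2644 and 2656 with the rescalings, 1298 with the replicate block and 1250 with the filter in 4 libraries.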
